A study of Mus musculus with 16 samples.

Results

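The collagens, laminins and integrins of the female mouse pituitary were examined as a group of genes chosen by name. The group held every protein-coding gene named as a collagen chain, a laminin alpha, beta or gamma chain, or a numbered Itga or Itgb integrin subunit. Itgb2 and Col25a1 were left out. The rule uses names only, but the group was chosen with earlier results of these data known. This rule found 71 of the 17362 genes with a value in the pituitary, of which 42 were collagen chains, 11 laminin chains and 18 integrin subunits.

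Pituitary RNA was sequenced as 1 library for each of 16 female mice aged 27 weeks, with 4 mice in each combination of genotype and diet. Control mice (Esr1fl/fl) carried loxP-flanked alleles of Esr1, the gene for oestrogen receptor alpha, and mutants (Esr1Nkx2-1Cre) carried the same alleles with a Cre driven by Nkx2-1, which deletes Esr1 in any cell with a history of Nkx2-1 expression, in the brain as well as in other organs. Mice of each genotype ate a standard diet (SD, called chow in the labels) or a high-fat diet (HFD) for 17 weeks. The profiling asked what changed in the gland with the loss of Esr1 and with the diet. Every value below is the authors' normalised expression value per transcript length. How it was scaled is not stated, so levels of different genes can be compared only roughly. Values of single mice are given in the order P356, P358, P359 and P383 for controls on SD, P357, P381, P382 and P384 for mutants on SD, P385, P390, P391 and P392 for controls on HFD, and P339, P341, P387 and P388 for mutants on HFD.

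Collagens are secreted as trimers of alpha chains that form fibrils, networks or filaments, whereas laminins are cross-shaped trimers of an alpha, a beta and a gamma chain that build basement membranes together with collagen IV. Integrins are pairs of an alpha and a beta subunit that span the cell membrane and bind these proteins. In the pituitary, basement membranes surround the cords of hormone-producing cells and the dense capillaries between them, and fibrillar collagen is made by stromal cells around the vessels.

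Esr1 itself was 40.5, 46.6, 39.4 and 29.0 in controls against 10.02, 22.2, 20.5 and 21.8 in mutants on SD, where the genotypes did not overlap. On HFD it was 23.6, 43.4, 42.7 and 39.6 in controls against 33.4, 27.9, 33.0 and 21.5 in mutants. There the genotypes overlapped through P385 and were not separated by Esr1 (log2 difference -0.34, SE 0.25, two-sided exact permutation p = 0.2). Values summed to between 908897 and 1335782 per mouse, and in 1457 genes with a single annotated transcript 1 read was worth between 0.0443 and 0.0688 units per kilobase, so that 3 reads correspond to between 0.133 and 0.206 units per kilobase. No gene of the group has a single annotated transcript. All libraries held the hormone genes of the anterior lobe, and 4 of 5 bone and cartilage markers had no value. The remaining one, Dmp1, was low, at 0.744 in P392, 0.574 in P387 and 0.0740 to 0.309 in the other mice. P392 and P387 also had the highest values of Col1a2 and Col1a1, and any part of bone in these values was not tested. Libraries of 2 mice stood apart. The summed level of 5 posterior lobe markers was 4.23 in P357, a mutant on SD, and 5.96 in P392, a control on HFD, against 10.6 to 17.9 in the other 14 mice, and Rax was at 0 in both of these mice. The summed level of 4 markers of melanotrophs, the cells of the intermediate lobe, was also low in both, at 1666 in P357 and 3484 in P392 against 11369 to 42298 in the others. Esr1 in P392 (39.6) was above that of every mutant, whereas many of the genes described here were at mutant levels in this mouse. Its label or its dissection may thus be in doubt, which was not tested and bears on every mean of the controls on HFD and on each count that includes it. P392 had the highest value of all 16 mice in 12 of the 57 genes tested, and P357 the highest in 9 and the lowest in 9. Each main count is therefore given with and without them. Since P392 was singled out partly by its values for these genes, results without these mice show how far the counts rest on them. They are no separate test of the genotype.

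Sequences are shown for genes that moved together in the results that follow. All 3 laminin beta chains were higher in mutants, and the stretch before the RefSeq transcription start of each (GRCm38.p6), cut back to the part that holds no annotated exon, is printed so that their promoters can be compared. The stretches lie on the plus strand at chr12:31265043-31265233 for Lamb1, chr9:108479612-108479735 for Lamb2 and chr1:193301744-193301992 for Lamb3, the last of which lies inside the Lamb3 gene because GENCODE annotates a further start upstream. Capitals mark matches to the GC box (GGGCGG) and the CCAAT box (CCAAT) on either strand.
Lamb1: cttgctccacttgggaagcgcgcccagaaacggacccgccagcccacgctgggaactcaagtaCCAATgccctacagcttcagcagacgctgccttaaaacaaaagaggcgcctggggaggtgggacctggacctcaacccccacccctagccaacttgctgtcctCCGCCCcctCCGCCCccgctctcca
Lamb2: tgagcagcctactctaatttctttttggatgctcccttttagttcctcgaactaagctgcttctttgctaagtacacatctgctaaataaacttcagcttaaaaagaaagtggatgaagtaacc
Lamb3: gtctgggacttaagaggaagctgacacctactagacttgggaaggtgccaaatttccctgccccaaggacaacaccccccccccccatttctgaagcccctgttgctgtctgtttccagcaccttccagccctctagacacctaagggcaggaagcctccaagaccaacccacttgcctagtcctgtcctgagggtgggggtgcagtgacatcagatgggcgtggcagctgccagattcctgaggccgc

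The Lamb1 stretch held 2 GC boxes and 1 CCAAT box. Neither motif occurred in the Lamb2 or Lamb3 stretch, nor in the whole windows of Lamb2 and Lamb3 described next. In whole windows of 300 bases (250 before and 50 after the start), a GC box was found in 32 of the 58 windows of the 52 matched genes of the group (55.17%) and in 35.66% of all 32851 windows. The CCAAT box was found in 15 member windows (25.86%, 37.41% of all), the TATA box (TATAAA) in 4 (6.90%, 13.62% of all) and the AP-1 site (TGANTCA) in 3 (5.17%, 7.81% of all). The oestrogen response element (GGTCA and TGACC with 3 bases of any kind between them) matched 0 member windows and 0.07% of all. Both strands were searched, the motifs were counted separately where they overlap, and a match is only a description of the letters. RefSeq windows of Lama3, Lama4, Lamc1 and Itga6 were not used here.

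A second sequence belongs to Col4a1 and Col4a2, the chains of the common collagen IV trimer, which lie head to head on chromosome 8. By the RefSeq starts, Col4a2 on the plus strand begins at 11312805 and Col4a1 on the minus strand at 11312826, so that their first exons share the 22 bases of chr8:11312805-11312826, printed on the plus strand with a GC box in capitals.
Col4a1 and Col4a2: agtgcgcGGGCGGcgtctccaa

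The other collagen IV genes are also arranged head to head. The start of Col4a6 on the X chromosome lies 1343 bases from that of Col4a5, and the RefSeq start of Col4a4 on chromosome 1 lies 72 bases from the GENCODE start of Col4a3. How closely the levels of each pair followed each other is given further on.

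Levels differed widely between the genes of the group. Averaged over the 16 mice, 57 of the 71 reached a mean of 1 and could be tested: 32 of 42 collagens, all 11 laminins and 14 of 18 integrins. Only 17 genes reached a mean of 10. The highest was Col1a2 at 260, one of the chains of the fibril-forming collagen I, followed by Itgb1 at 103, the beta subunit shared by most matrix-binding integrins. Itgb5 (31.9), Lamb3 (30.05), Col27a1 (29.5), Itga6 (24.2), Col4a1 (23.8) and Lamb2 (21.0) came next. At the other end, Col6a4 was listed at 0 in 6 mice, Col9a1 in 2 and Col6a6 in 1, and the 14 genes that were not tested had means between 0.0426 and 0.929. Group means of Itgb1 and Itgb5 lay close together, at 101 ± 9.78, 95.5 ± 26.8, 103 ± 11.2 and 115 ± 11.1 for Itgb1 and of 27.9 ± 3.13, 31.5 ± 6.80, 31.3 ± 7.40 and 37.0 ± 1.96 for Itgb5 in controls on SD, mutants on SD, controls on HFD and mutants on HFD (SD, n = 4 each). The wide spread of Itgb1 in mutants on SD came with P357, at 56.3 against 103 to 117 in the other mutants of that group.

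Averaged over both diets, mutant pituitaries had higher levels of some laminin chains, of the integrin subunits Itga5 and Itga6 and of the collagens Col5a3, Col6a1 and Col16a1 than control pituitaries. With limma and Benjamini-Hochberg adjustment over all genes tested, 12 of the 57 members passed an adjusted p of 0.05, against 6.54% of all 14345 genes. Of these, 11 rose (4.48% of all genes rose) and 1, Col4a3, fell (2.06% of all genes fell). The rises included the laminins Lama3, Lama4, Lamb1, Lamb2 and Lamb3, 2 of 14 integrins (Itga5 and Itga6) and 3 of 32 collagens (Col5a3, Col6a1 and Col16a1). The median log2 difference was 0.50 over the laminins, 0.38 over the collagens, 0.18 over the integrins and 0.33 over all 57, compared with 0.00 over all genes tested, and 49 of the 57 lay above 0, as did 50.4% of all genes. An unadjusted p under 0.05 was reached by 27 of the 57, against 22.7% of all genes. In bulk tissue, more cells of a type and more RNA per cell cannot be told apart, and no cell type is assigned to these differences. Without P357 and P392, 26 members passed (25 rose), where 18.6% of all genes did. Leaving out 1 mouse at a time gave 6 members without P390 or P341, where 441 and 488 of the 14345 genes passed. It gave 7 without P391, P359, P339 or P387 (468 to 566 genes). Without each of 9 others it gave between 8 and 15 (506 to 1412 genes), and without P392 it gave 25 (13.5% of all genes).

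**Figure D1:**
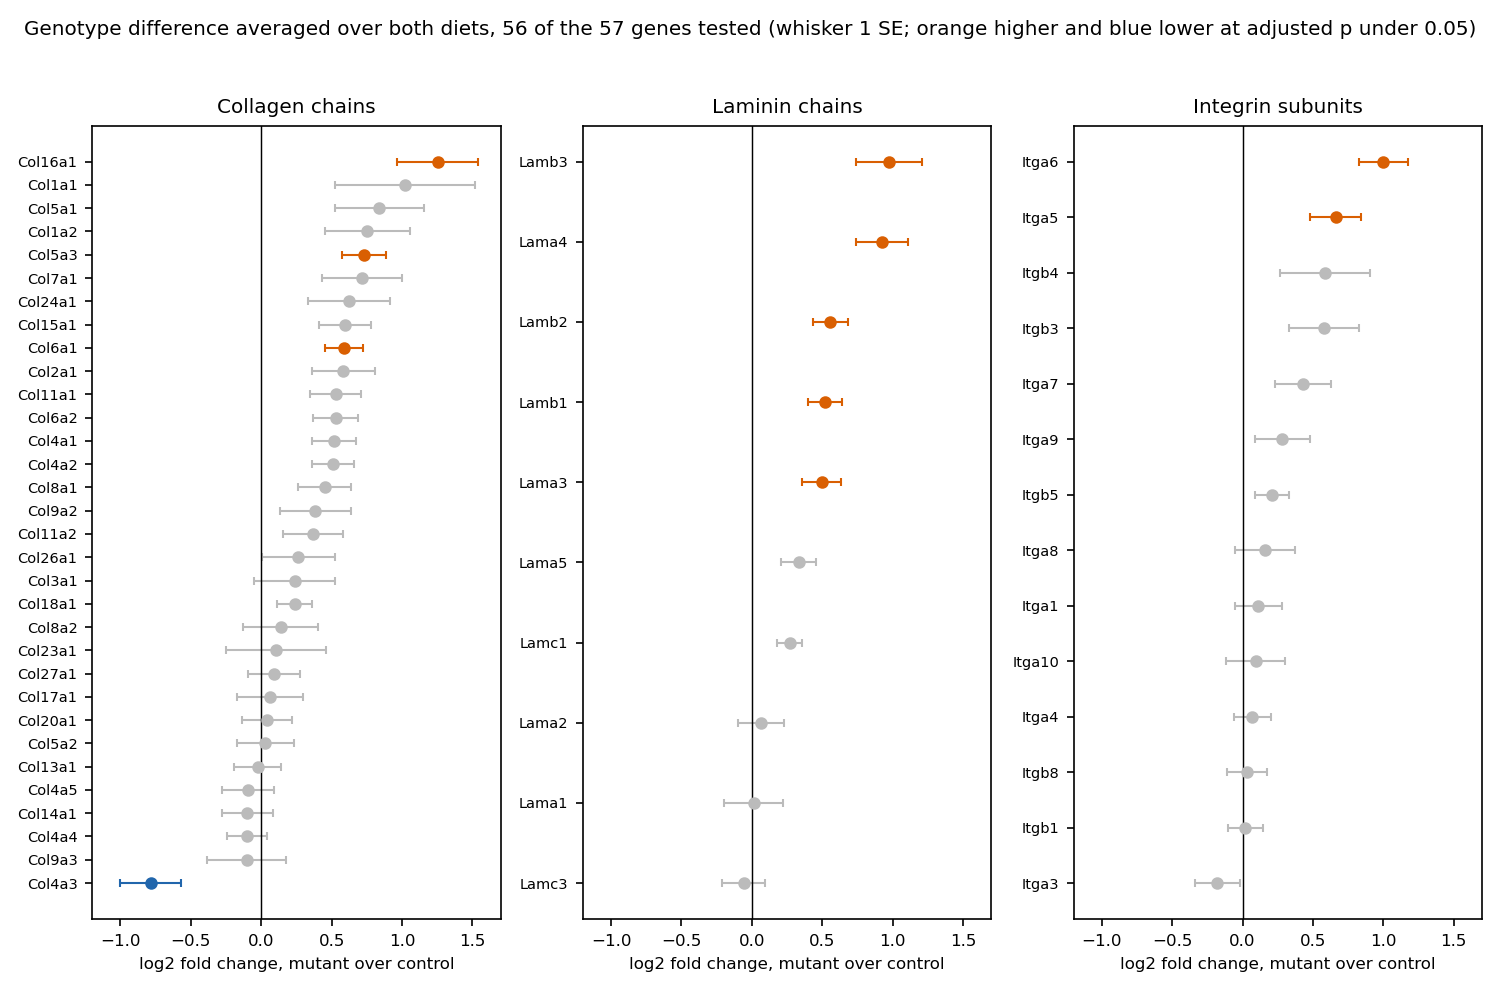
Log2 difference between mutants and controls averaged over both diets for all but 1 of the 57 genes tested, with whiskers of 1 SE and each family in its own panel. Orange points rose and the blue point fell at an adjusted p under 0.05, and 5 of the laminin chains shown are orange.

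Lamb3 and Lama3 encode the beta 3 and alpha 3 chains of epithelial laminin, which anchors epithelial cells through integrins that contain alpha 6, and both were among the genes that rose. Lamb3 (ENSMUSG00000026639, GRCm38 chr1:193207699-193343878, plus strand) was 18.5, 5.06, 22.1 and 14.2 in controls on SD, 40.8, 41.6, 43.0 and 31.1 in mutants on SD, 24.5, 21.2, 28.4 and 39.4 in controls on HFD and 42.5, 38.7, 43.0 and 26.7 in mutants on HFD. On SD all mutants lay above all controls, whereas on HFD the groups overlapped and the highest control was P392. Its log2 difference averaged over diets was 0.97 (SE 0.23, adjusted p = 0.0236 by limma with Benjamini-Hochberg adjustment), and on SD alone it was 1.52 (SE 0.33, adjusted p = 0.0336), a fold of 2.88.

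Lama3 (ENSMUSG00000024421), the alpha 3 chain, was less abundant than Lamb3, with 4.95, 4.45, 4.96 and 4.53 in controls on SD, 5.497, 7.88, 7.04 and 7.03 in mutants on SD, 3.42, 4.35, 4.24 and 7.94 in controls on HFD and 7.47, 7.18, 7.39 and 5.91 in mutants on HFD. Its values separated the genotypes on SD and, apart from P392, on HFD, with an averaged log2 difference of 0.50 (SE 0.14, limma adjusted p = 0.0436). Lama3 passed in 4 of the 16 fits that left out a mouse. Exons of Lama3 overlap Gm29200 on the opposite strand, and the use of strand in the counting is not given in the sources used here.

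Itga6 (ENSMUSG00000027111, GRCm38 chr2:71745616-71858416, plus strand), the alpha subunit of laminin-binding integrins, had the smallest adjusted p of the group. It was 17.3, 14.5, 9.68 and 15.9 in controls on SD and 35.2, 35.9, 30.1 and 26.1 in mutants on SD, and on HFD 15.2, 13.0, 14.2 and 31.8 in controls and 39.0, 35.5, 28.1 and 26.2 in mutants. Mutants on both diets lay in the same range, above every control except P392. The log2 difference was 1.00 averaged over diets (SE 0.17, limma adjusted p = 0.00515) and 1.14 on SD (SE 0.24, limma adjusted p = 0.0318), a fold of 2.21. Its beta partners moved less: Itgb1 differed by 0.02 (SE 0.12) on average, a sign that turned with quantile normalisation and without single mice, and Itgb4, the partner of alpha 6 in the epithelial laminin receptor and chosen here after its values were seen, differed by 0.58 (SE 0.32, limma adjusted p = 0.290).

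Lama4, Lamb1 and Lamb2 rose as well. Lama4 (ENSMUSG00000019846, GRCm38 chr10:38965515-39110188, plus strand), the alpha 4 chain found around endothelium, was 1.99, 2.52, 2.23 and 2.07 in controls on SD, 4.35, 4.74, 3.69 and 5.503 in mutants on SD, 2.11, 1.95, 1.62 and 5.59 in controls on HFD and 5.40, 5.61, 4.23 and 6.18 in mutants on HFD. Every mutant was above every control other than P392. The averaged log2 difference was 0.92 (SE 0.19, limma adjusted p = 0.0106).

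Lamb1 (ENSMUSG00000002900, GRCm38 chr12:31265234-31329644, plus strand), the beta 1 chain of most early and vascular laminins, was 5.24, 7.96, 6.09 and 7.44 in controls against 10.1, 9.29, 9.98 and 8.28 in mutants on SD, and 5.58, 7.16, 6.22 and 10.5 against 10.8, 9.87, 12.3 and 10.5 on HFD. The averaged log2 difference was 0.52 (SE 0.12, limma adjusted p = 0.0222). Lamb2 (ENSMUSG00000052911, GRCm38 chr9:108479736-108490530, plus strand), the beta 2 chain, was 19.9, 18.2, 12.5 and 14.9 against 24.2, 31.3, 22.1 and 24.5 on SD, and 15.9, 12.3, 20.7 and 22.0 against 24.3, 25.1, 23.9 and 23.8 on HFD, and was the only laminin whose genotypes did not overlap on either diet with all mice kept. Its averaged log2 difference was 0.56 (SE 0.12, limma adjusted p = 0.0174). Lamc1, the gamma 1 chain that pairs with these beta chains, did not pass (log2 difference 0.27, SE 0.09, limma adjusted p = 0.0877), nor did Lama1, Lama2, Lama5 and Lamc3, which were not named by the rule for genes described and had log2 differences between -0.06 and 0.33.

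**Figure D2:**
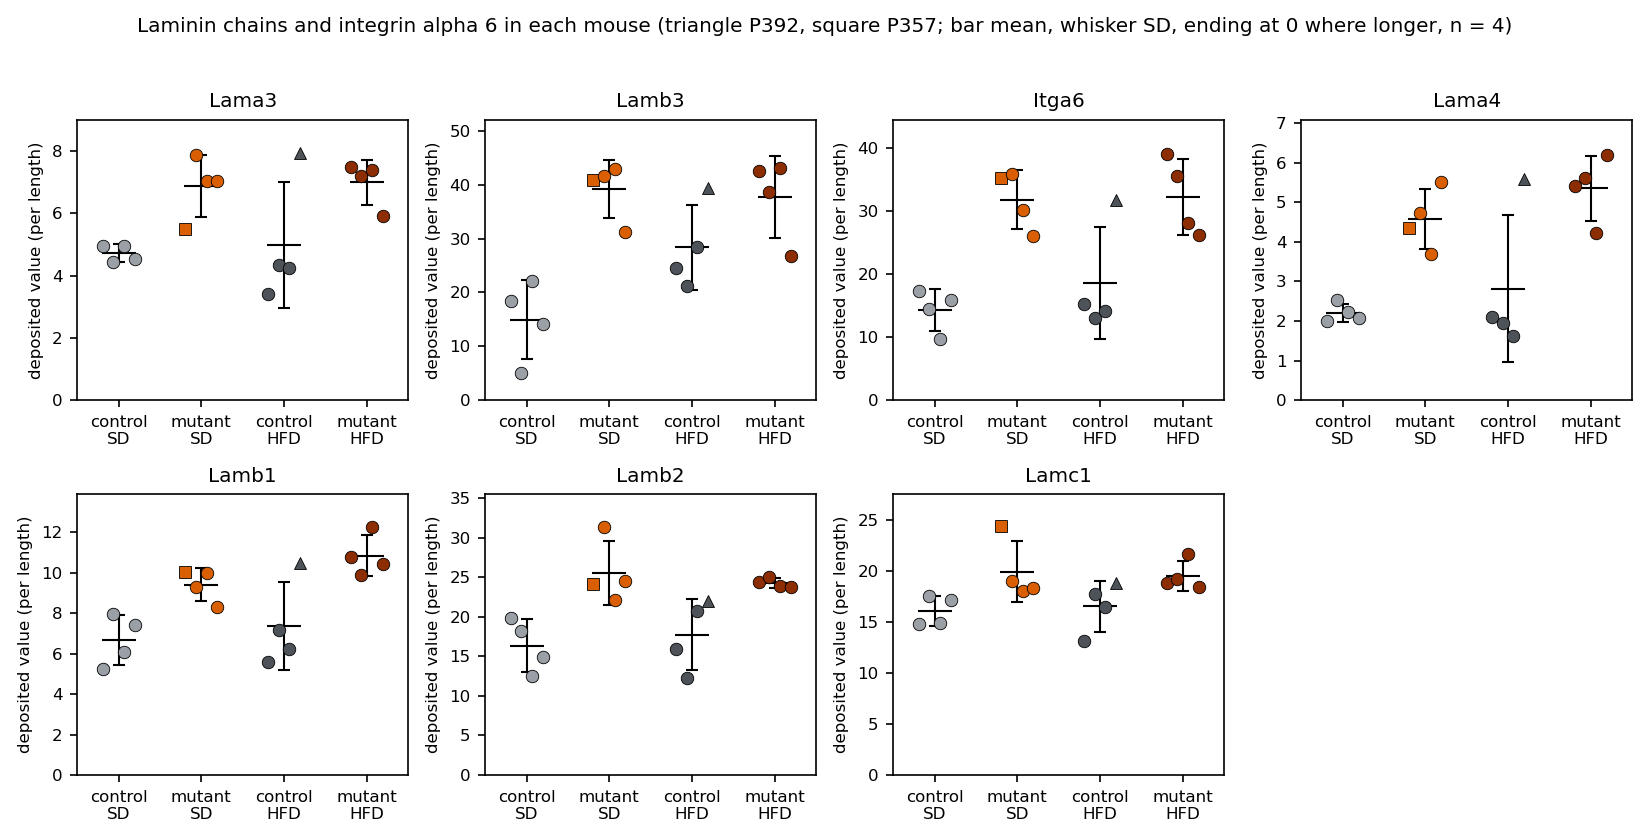
Deposited values per transcript length of 6 laminin chains and Itga6 in each mouse by group, with bars at the mean and whiskers of 1 SD that end at 0 where longer (n = 4). In the Lama4 panel the triangle (P392, 5.59) sits far above the other controls on HFD, which lie between 1.62 and 2.11.

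Among the collagens, Col16a1 (ENSMUSG00000040690, GRCm38 chr4:130047840-130099283, plus strand), a chain of the fibril-associated type, showed the largest averaged difference that passed. It was 13.2, 4.90, 3.43 and 4.84 in controls on SD, 17.8, 23.2, 22.8 and 11.7 in mutants on SD, 7.997, 7.28, 6.56 and 20.8 in controls on HFD and 11.1, 16.2, 26.1 and 24.8 in mutants on HFD. The groups overlapped on each diet through 1 control, P356 on SD and P392 on HFD. The log2 difference was 1.25 (SE 0.29, limma adjusted p = 0.0190), and it passed under each of 9 other settings and in all 16 fits that left out a mouse.

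Col5a3 (ENSMUSG00000004098, GRCm38 chr9:20770050-20815067, minus strand), a chain of the collagen V that regulates fibril formation, was 1.64, 1.61, 1.42 and 1.41 in controls on SD against 3.32, 3.33, 3.29 and 3.13 in mutants. On HFD it was 1.17, 0.930, 1.06 and 2.81 in controls against 2.06, 2.44, 2.20 and 2.32 in mutants. Mutant values on SD were tightly grouped and lay above all mutants on HFD. The averaged log2 difference was 0.73 (SE 0.16, limma adjusted p = 0.0148). On SD alone it was 0.90 (SE 0.22, limma adjusted p = 0.0506).

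Col6a1 (ENSMUSG00000001119, GRCm38 chr10:76708792-76726168, minus strand), a chain of the microfibril-forming collagen VI, was 2.79, 2.66, 3.52 and 3.56 in controls on SD, 4.28, 5.63, 5.17 and 5.63 in mutants on SD, 2.77, 2.52, 2.77 and 5.18 in controls on HFD and 4.43, 5.69, 4.47 and 4.73 in mutants on HFD. P392 was again the control inside the mutant range, and the averaged log2 difference was 0.59 (SE 0.14, limma adjusted p = 0.0201). Its partner Col6a2 differed by 0.53 (SE 0.16, limma adjusted p = 0.0632) and did not pass.

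Itga5 (ENSMUSG00000000555, GRCm38 chr15:103344286-103366763, minus strand), the alpha subunit of the fibronectin receptor, was the second integrin that rose. It was 1.33, 1.00, 1.18 and 0.986 in controls against 2.23, 1.88, 2.08 and 2.28 in mutants on SD, and 0.990, 0.934, 1.37 and 3.26 against 2.81, 2.51, 2.37 and 2.52 on HFD. Apart from P392, no control reached a mutant. The averaged log2 difference was 0.66 (SE 0.18, limma adjusted p = 0.0386), and with each mouse left out in turn it passed in 3 of 16 fits (limma adjusted p up to 0.0900).

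Collagen I, the main fibrillar collagen, differed in the same direction without passing the test. Col1a2 was 181, 209, 158 and 161 in controls on SD, 230, 236, 259 and 356.9 in mutants on SD, 136, 130, 89.0 and 623 in controls on HFD and 329, 353, 480 and 222 in mutants on HFD. Col1a1 was 2.35, 3.33, 3.38 and 3.66, then 3.56, 6.68, 6.52 and 6.98, then 2.76, 2.55, 2.45 and 34.2, and then 11.2, 16.6, 38.8 and 3.81 in the same order. P392 had the highest Col1a2 of all mice and P387, a mutant on HFD, the highest Col1a1. Averaged log2 differences were 0.75 (SE 0.30, limma adjusted p = 0.149) for Col1a2 and 1.02 (SE 0.50, limma adjusted p = 0.234) for Col1a1, and without P357 and P392 they were 1.09 (SE 0.16, limma adjusted p = 0.000488) and 1.56 (SE 0.35, limma adjusted p = 0.00747). The fit without these mice drops the control with the highest Col1a2 and Col1a1, so it is no separate test. Col5a1 lay higher in mutants by 0.84 (SE 0.32, limma adjusted p = 0.127) over all mice and did not pass.

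Col4a3 (ENSMUSG00000079465, GRCm38 chr1:82586921-82722059, plus strand) was the only member that fell. This chain belongs to a restricted collagen IV trimer found in specialised basement membranes such as that of the kidney. It was 3.12, 3.45, 3.21 and 3.71 in controls on SD, 2.14, 0.835, 2.60 and 0.819 in mutants on SD, 1.44, 3.55, 2.91 and 2.43 in controls on HFD and 1.296, 1.80, 0.917 and 2.18 in mutants on HFD. All mutants lay below all controls on SD, and on HFD the groups overlapped through P385. The averaged log2 difference was -0.78 (SE 0.22, limma adjusted p = 0.0431), and it passed in 6 of the 16 fits that left out a mouse. Exons of Col4a3 overlap C430014B12Rik on the opposite strand. Its trimer partners Col4a4 and Col4a5 differed by -0.10 (SE 0.14) and -0.10 (SE 0.19), and Col4a1 and Col4a2 lay higher in mutants by 0.52 (SE 0.16, limma adjusted p = 0.0610) and 0.51 (SE 0.15, limma adjusted p = 0.0523), neither past the threshold.

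**Figure D3:**
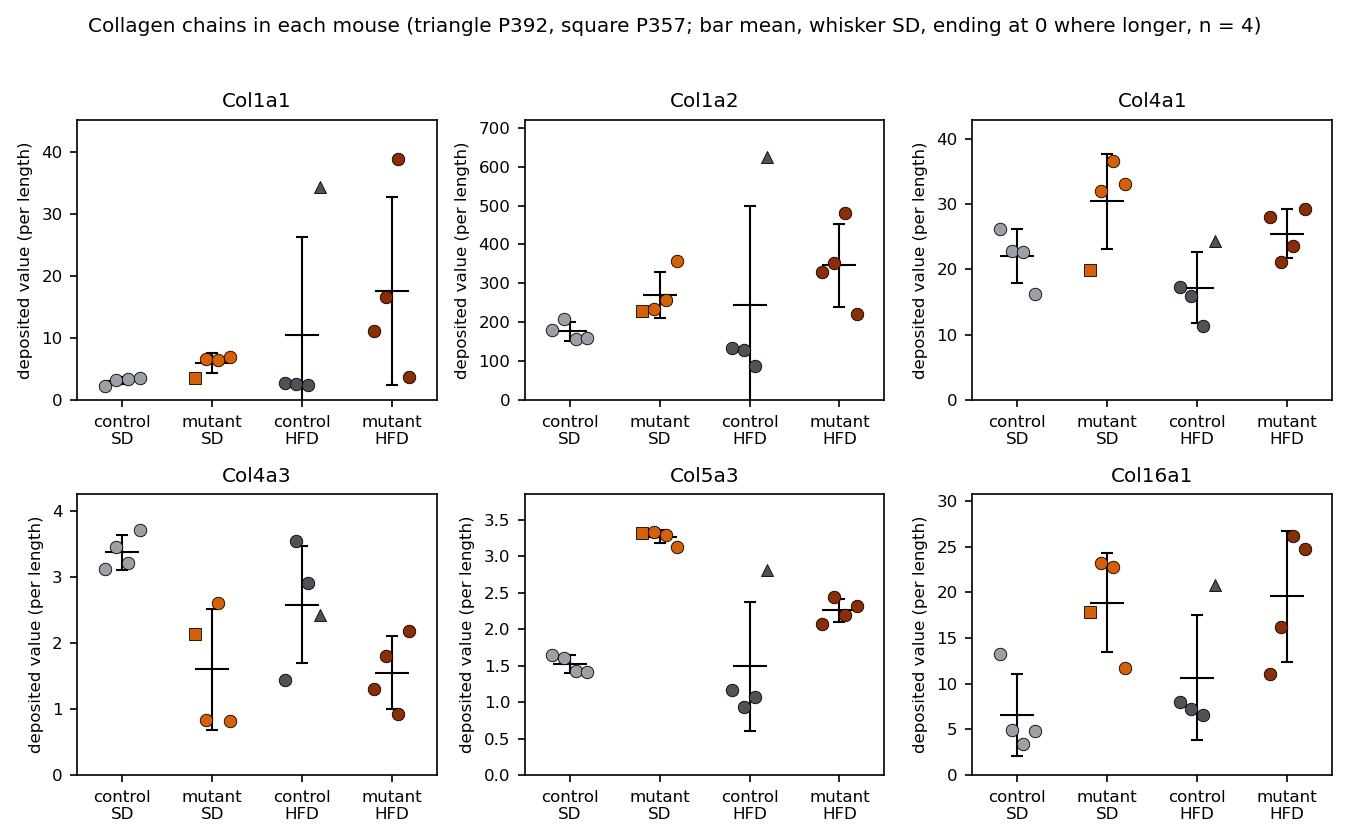
Deposited values per transcript length of 6 collagen chains in each mouse by group, with bars at the mean and whiskers of 1 SD that end at 0 where longer (n = 4). The triangle (P392) lies with or above the mutants for Col1a1, Col1a2, Col5a3 and Col16a1, and Col4a3 is the panel in which mutants lie below controls.

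Taken on each diet alone, the genotype difference passed in few genes. On SD, 2 members rose, Itga6 and Lamb3, and 0 fell, against 1.84% of all genes called (1.37% higher, 0.474% lower). On that diet 13 members had all 4 mutants above all 4 controls (6.09% of all genes) and 1, Col4a3, had all mutants below (4.50%), 14 in either direction (10.6%). The 13 were Itga6, Lamb3, Col5a3, Lamb2, Lama4, Col6a1, Itga5, Lamb1, Lama3, Lamc1, Col15a1, Col5a1 and Col1a2, of which Col15a1 was named only for this count. The median log2 difference was 0.40 over the 57 members and -0.01 over all genes, 42 members lay above 0 (49.0% of all genes), and 20 had an unadjusted p under 0.05 (19.9%). Leaving out 1 mouse gave between 0 and 9 members called. It was 0 without P358, P383, P381, P382 or P384, where 33 to 57 of the 14345 genes passed. It was 1 without P359 (38 genes) or P357 (134 genes) and 4 without P390 (254 genes). It was 5 without P356 (826 genes) and 9 without P392 (5.42% of all genes). Without both P357 and P392 it was 14, all higher, against 6.70% of all genes.

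On HFD, 0 members and 0% of all genes passed with limma, and 14 of the 57 members had an unadjusted p under 0.05, against 10.2% of all genes. The median log2 difference was 0.28 over the members and 0.02 over all genes, and 48 members lay above 0 (53.9% of all genes). In 3 members, Col7a1, Lamb2 and Itgb4, all mutants were above all controls (2.96% of all genes), in 0 were all mutants below (2.34%, or 5.30% in either direction), and Col7a1 and Itgb4 were named only for this count. With P392 left out, 14 members passed, all higher, against 4.55% of all genes, and with P357 left out as well 19 passed, all higher, against 7.42%. Lama4 then differed by 1.28 (SE 0.17, limma adjusted p = 0.000559) and Itga6 by 1.14 (SE 0.19, limma adjusted p = 0.00239) on the log2 scale. Without P392, the 4 mutants lay above the remaining 3 controls in 24 members (12.2% of all genes) and below them in 0 (7.47%). P392 lay at or above the lowest mutant in 21 of those 24, which follows from the 3 without overlap when it is kept. The count of 24 was chosen after seeing the values, and P392 was left out with its values for these genes known.

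**Figure D4:**
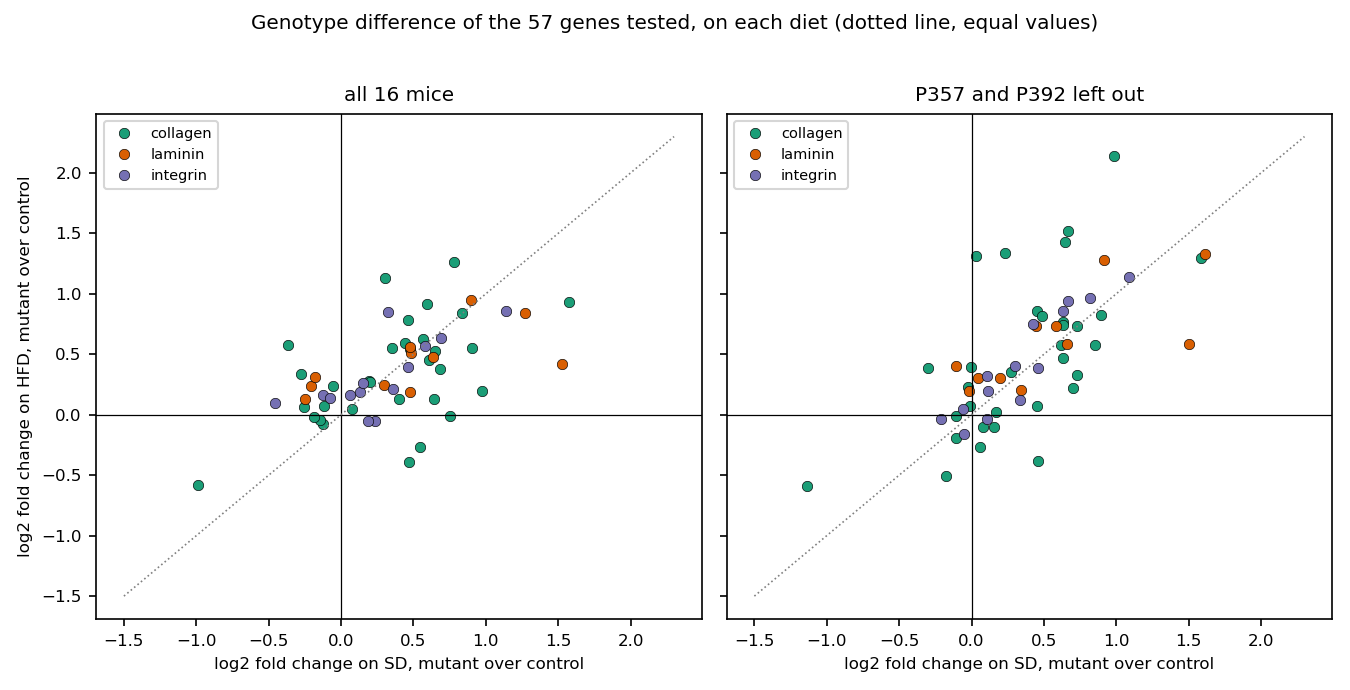
Log2 difference between mutants and controls on SD (horizontal) and HFD (vertical) for the 57 genes tested, with all 16 mice on the left and without P357 and P392 on the right. Most points lie above 0 on both axes, and Col4a3 is the point at -0.99 on SD and -0.58 on HFD with all mice.

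Markers of vessels moved with genotype too. The summed level of 8 endothelial markers, all 8 of them with values and none at 0 in any mouse, ran from 118 to 142 in controls fed SD and from 179 to 231 in their mutant counterparts. On HFD it ran from 110 to 228 in controls, with P392 at 228, and from 177 to 200 in mutants. Averaged over diets, where 4.48% of all genes rose and 2.06% fell, 4 of the 8 rose (Pecam1, Cdh5, Tek and Plvap), by 0.43 to 0.62 on the log2 scale. The summed level of 6 pericyte and smooth muscle markers was 46.1 to 65.9 and 92.4 to 112 on SD, and 46.4 to 157 and 96.8 to 150 on HFD, again with P392 as the highest control, and 2 of the 5 tested rose (Rgs5 by 1.20 and Kcnj8 by 0.75).

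Fibroblast markers did not follow this order. Their summed level over 6 genes was 30.4 to 55.2 and 20.4 to 37.3 on SD and 32.7 to 48.1 and 32.1 to 43.0 on HFD for controls and mutants, with Dpt at 0 in some mice, and 0 of 3 tested passed with limma (1 at an unadjusted p under 0.05, against 22.7% of all genes). Immune markers summed to 29.9 to 39.3 and 40.8 to 106 on SD and 26.2 to 69.8 and 39.7 to 91.5 on HFD (0 of 6 passed, 4 at an unadjusted p under 0.05), and 3 blood genes to 336 to 1863 and 1282 to 2478 on SD and 450 to 1078 and 769 to 1373 on HFD (0 of 3 passed, 3 at an unadjusted p under 0.05). Stem and folliculostellate markers summed to 50.8 to 61.8 and 61.8 to 102 on SD and 55.7 to 69.6 and 61.2 to 83.7 on HFD, and 1 of 3 tested, Aldh1a2, rose by 0.51 (4.48% of all genes rose). The part of these cell types in the differences of the collagens, laminins and integrins was not tested.

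**Figure D5:**
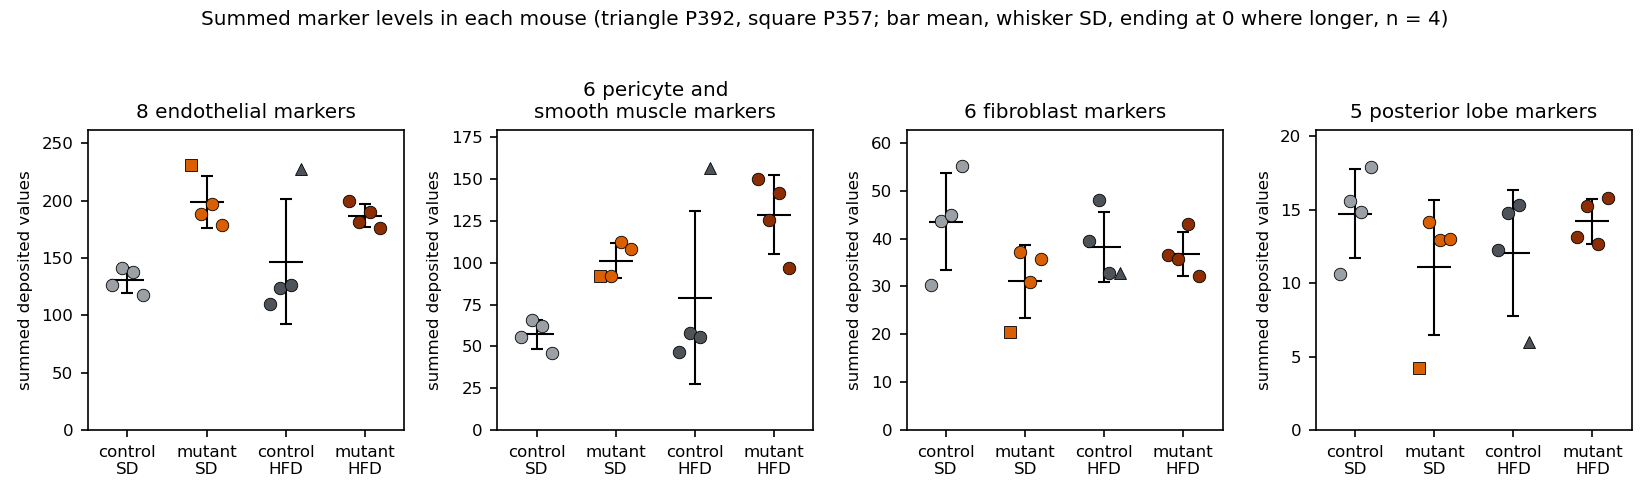
Summed deposited values of 4 marker lists in each mouse by group, with bars at the mean and whiskers of 1 SD that end at 0 where longer (n = 4). Endothelial sums of controls lie between 110 and 142 apart from the triangle (P392, 228), below the mutants at 177 to 231, and both P357 and P392 lie lowest for the posterior lobe markers.

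Other genes of the matrix pathway were read in the same comparison averaged over diets. In it 4.48% of all genes rose, 2.06% fell and 22.7% had an unadjusted p under 0.05 with limma. Of 9 basement membrane partners, 2 rose and 0 fell: Hspg2, which encodes perlecan, by 0.71 (SE 0.18, limma adjusted p = 0.0287) and Smoc1, a matrix calcium-binding protein, by 1.13 (SE 0.21, limma adjusted p = 0.00691), whereas Nid1 and Nid2, which link laminin to collagen IV, differed by 0.31 and 0.32 without passing. Of 13 other matrix proteins tested, 2 rose, namely Fn1 (fibronectin, the ligand of the alpha 5 integrin) by 0.96 (SE 0.20, limma adjusted p = 0.0136) and Vtn (vitronectin) by 0.87 (SE 0.25, limma adjusted p = 0.0496). Of 21 collagen processing enzymes and chaperones tested, 1 rose (4.76%, near the share of all genes), the lysyl hydroxylase Plod2 by 0.62 (SE 0.17, limma adjusted p = 0.0457). Of 11 integrin adaptors 1 fell, the focal adhesion kinase Ptk2, by -0.36 (SE 0.09, limma adjusted p = 0.0350). None of 7 matrix proteases and inhibitors or of 6 other integrins tested passed with limma, where 3 and 1 had an unadjusted p under 0.05. Median log2 differences were 0.32 for the basement membrane partners, 0.27 for other matrix proteins, 0.13 for collagen processing, 0.02 for the adaptors, 0.10 for matrix degradation and 0.43 for other integrins.

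The diet moved no member past the threshold. For HFD against SD, 0 of 57 members passed with limma in controls and 0 in mutants, where 0% of all genes did, and the unadjusted p was under 0.05 for 1 member in controls (4.13% of all genes) and 1 in mutants (5.0%). In controls this was Lamb3, which lay higher on HFD by 1.04 (SE 0.33, limma adjusted p = 0.998), from 5.06 to 22.1 on SD to 21.2 to 39.4 on HFD. In mutants it was Col2a1, named only for this count, at -0.73 (SE 0.31, limma adjusted p = 0.813). Median log2 differences were 0.01 in controls and 0.01 in mutants, and 31 and 30 members lay above 0, against 50.3% and 54.2% of all genes. Without P357 and P392 the test still called 0 members, where 0.00697% of all genes passed in controls. In mutants all mice on HFD lay below those on SD for Col5a3 and above them for Itga5 (1.44% and 1.88% of all genes, 3.31% in either direction), and in controls the mice on HFD lay above those on SD for Col8a2 (1.25%, with 1.36% of all genes lower and 2.61% in either direction), which was named only for this count.

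Whether the genotype difference itself changed with the diet was tested as an interaction, which 0 of 57 members and 0% of all genes passed with limma, and 2 members had an unadjusted p under 0.05 (4.20% of all genes), and 33 lay above 0 (53.2%). These were Lamb3 (-1.11, SE 0.47) and Col20a1 (-0.86, SE 0.35), the latter named for this count, each with a limma adjusted p of 0.924. That Lamb3 passed on SD and not on HFD is thus not shown to be a difference between the diets at this number of mice.

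Chains that assemble together or lie head to head were compared over the 16 mice after the mean of each group was removed from the log2 values, with 6 pairs in the family, 100000 permutations and Benjamini-Hochberg adjustment. Col4a1 and Col4a2, which share the 22 bases printed above, followed each other most closely, with r = 0.954 and rho = 0.944 (permutation p = 1e-05, the smallest that these permutations can give, adjusted p = 6e-05). Without P357 and P391 r was 0.945. Their ratio stayed between 1.39 and 1.79 in all mice. Exons of these genes overlap on opposite strands only in these 22 bases, where the longest transcripts have 6615 (Col4a1) and 6450 (Col4a2) bases. Strand use is not known, and any part of the overlap in the shared signal was not tested.

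Col1a1 and Col1a2 gave r = 0.907 and rho = 0.8294 (permutation p = 2e-05 and 0.00018, adjusted p = 6e-05 and 0.00054), which became r = 0.798 without the 2 mice farthest from the median of Col1a1, P388 and P392. Although both chains form 1 trimer, the ratio of Col1a1 to Col1a2 was between 0.0130 and 0.0809 with a median of 0.0221, and it was largest in P387 and 0.0549 in P392. Any factor shared by a whole library cancels in this ratio, while levels of different genes can still be compared only roughly. The longest annotated transcripts have 5930 bases for Col1a1 and 5348 for Col1a2. The cause of the low ratio was not tested. Lamb1 and Lamc1 gave r = 0.735 and rho = 0.735 (permutation p = 0.00131 and 0.00155, adjusted p = 0.00262 and 0.00310), or r = 0.618 without P385 and P392. Col6a1 and Col6a2 gave r = 0.689 and rho = 0.688 (permutation p = 0.00492 and 0.00409, adjusted p = 0.00738 and 0.00613), or r = 0.622 without P341 and P392.

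Col4a5 and Col4a6 gave r = 0.636 and rho = 0.585 (permutation p = 0.00688 and 0.0192, adjusted p = 0.00826 and 0.0231), or r = 0.511 without P381 and P382. Col4a6 was low, with group means between 0.521 and 0.748. Col4a3 and Col4a4 showed no such relation, with r = -0.126 and rho = -0.197 (permutation p = 0.643 and 0.464, adjusted p = 0.643 and 0.464), or r = -0.324 without P382 and P385. Their starts are closer than those of Col4a5 and Col4a6, and the ratio of Col4a3 to Col4a4 ranged from 0.724 to 3.97.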

How the data were processed

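Members, gene lists and tests were chosen with earlier results of these data known. The authors made NEBNext Ultra II libraries, sequenced them on an Illumina NovaSeq and ran Kallisto (gene mode, mm10) and then Sleuth; versions, annotation and strand use are not given in the sources used here. The deposited values are a normalised signal per transcript length, not counts, and how they were scaled is not stated. Values were taken to log2 after adding 0.5, and limma 3.58.1 (R 4.3.3; a mean for each group, all 16 mice, eBayes trend) was run on the 14345 of 17362 genes whose average reached 1. Benjamini-Hochberg adjustment covered all of these genes. On this scale fold changes of low genes are understated. Esr1 on HFD was also compared by a two-sided exact permutation test (70 splits, smallest p 0.0286). Correlations used 100000 permutations. The script was tested on simulated data. Genes described are those with an adjusted p under 0.05 in any comparison, the 5 largest rises and falls on SD without overlap, the 3 highest of each family and the 6 chain pairs. Where nothing states that mice came from separate litters or batches, p-values measure the spread between these mice. Symbols and coordinates are from GENCODE M21 (GRCm38), and promoter sequences from RefSeq (GRCm38.p6), which matched 52 of 71 members. Between 81.3% and 93.7% of low values were whole reads within 0.15 in single-transcript genes, and members have several transcripts, so no count test was run. One member is counted in the totals but not reported here.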

Additional observations from a re-analysis of the deposited data

Results flagged for a closer look

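In 96 groups of 4 mice (24 described genes in 4 groups), a mouse stood far from the other 3 in 14. For independent, normally distributed values about 1 in 20, or 4.8, would be flagged. The groups share mice and many of the genes vary together, so this figure is only a rough guide. Of these, 8 were P392 and 3 were P357. Among controls on HFD, P392 was high for Col16a1 (20.8, others 6.56 to 7.997), Col1a1 (34.2, others 2.45 to 2.76), Col1a2 (623, others 89.0 to 136), Col5a1 (7.59, others 1.03 to 1.21), Col5a3 (2.81, others 0.930 to 1.17), Col6a1 (5.18, others 2.52 to 2.77), Itga6 (31.8, others 13.0 to 15.2) and Lama4 (5.59, others 1.62 to 2.11). Among mutants on SD, P357 was low for Col1a1 (3.56, others 6.52 to 6.98) and high for Col27a1 (53.1, others 26.2 to 27.1) and Lamc1 (24.4, others 18.0 to 19.0). The remaining 3 were Col16a1 in P356 (13.2, other controls on SD 3.43 to 4.90), Col4a4 in P384 (1.13, other mutants on SD 0.922 to 0.956) and Itgb1 in P339 (131, other mutants on HFD 109 to 110). P392 also had the highest endothelial and pericyte sums of the controls, and the part of this in its values was not tested.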

How the results depend on the processing

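No paired analysis was possible because the labels give the groups no shared replicate numbers. Over both diets, 12 members passed (6.54% of all genes). A mean of at least 5 left 27 members to test and 6 passed, as did 610 of all 10795 genes then tested. Without P357 and P392 26 passed (18.6% of all genes), while the other settings gave 11 or 12 (878 to 1082 genes). Leaving out 1 mouse gave 6 to 25 over both diets, 0 to 9 on SD and 0 to 14 on HFD, and 0 for the diet and the interaction. In the same fits 441 to 1931, 33 to 826 and 0 to 653 of all 14345 genes passed. For the diet and the interaction, at most 6 and 1 genes did. Without P357 and P392, 14 members passed on SD and 19 on HFD (6.70% and 7.42% of all genes), against 2 and 0 (1.84% and 0%). For the chain pairs, r fell to 0.519 for Col6a1 with Col6a2 without these mice (adjusted p = 0.0727) and to 0.496 for Col4a5 with Col4a6 with group means kept (adjusted p = 0.0598), and turned to 0.147 for Col4a3 with Col4a4. Signs turned only in differences that did not pass. On SD, Col27a1 was 0.034 with a term for the 2 blocks of mouse labels and -0.30 to 0.063 without 1 mouse. The blocks were P339 to P359 and P381 to P392, and what they stand for is not given. They were uneven over the groups. Controls on SD were in the lower block except P383, and mutants on SD in the upper except P357. All controls on HFD were in the upper block, and mutants on HFD were split. On SD, Col4a5 was -0.41 to 0.022 and Itgb1 -0.24 to 0.11 without 1 mouse (Itgb1 0.11 without P357 and P392). On HFD, Col4a5 was -0.19 to 0.081. Averaged, Col27a1 was -0.032 to 0.17 and Itgb1 -0.039 to 0.14 without 1 mouse, and Itgb1 was -0.046 with quantile normalisation. With limma, Itga5 passed in 7 of 8 settings other than the main one (adjusted p up to 0.0547), Lama3 in 6 of 9 (up to 0.0540) and Lamb3 on SD in 9 of 10 (up to 0.0753). Without 1 mouse, on SD, Itga6 passed in 9 and Lamb3 in 10 of 16 fits. The causes were not tested. Levels under median scaling moved by less than 1 SD. In genes with a single annotated transcript, 1 read was worth between 0.0443 and 0.0688 units per kilobase, well below a value of 1. The number of reads behind each member's value was not estimated, because members have several transcripts.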
